A study of Mus musculus with 16 samples.

Results

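The collagen genes described here are the 37 genes, measured by 59 of the 25697 probes on the array, whose whole symbol reads Col, a number, the letter a and a number, out of 16593 genes named on the array. Each gene is given by the probe with the highest mean over the 16 arrays, since 12 of them had several probes. Of the 37, 11 encode fibrillar collagen chains and 26 encode other chains. The arrays, an Illumina mouse expression BeadChip, had been hybridized with total RNA of osteogenic cultures of bone marrow stromal cells (BMSC) after 7 days. The 8 wild type cultures are compared with 8 cultures of Osterix1-Cre:Hdac3 CKO (conditional knockout) mice, and all animals had a mixed CD1/C57BL6 background. Hdac3 is a histone deacetylase, and the Osterix promoter drives Cre in cells of the osteoblast lineage, so other cells in the same culture can keep the gene. Whether the wild type mice carried Cre, and how many animals gave the cells, is not given in the sources used here.

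A collagen molecule is a triple helix of 3 chains, some made from 1 gene and others from several, and each chain must be hydroxylated, glycosylated and folded in the endoplasmic reticulum before export. Fibrillar collagens are trimmed outside the cell and assemble into cross-linked fibrils; type I collagen is the main protein of bone, and type II collagen that of cartilage. Other collagens form sheets in basement membranes (type IV), beaded filaments around cells (type VI), anchoring fibrils (type VII) or coats on fibrils, and some span the cell membrane.

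Arrays carry the number in their title, as in WT13 and KO15. The numbers fall into 5 runs of neighbours, namely run 1 (WT5 and KO7), run 2 (WT13, WT14, KO15 and KO16), run 3 (WT21, WT22, KO23 and KO24), run 4 (WT30 and KO32) and run 5 (WT42, WT44, KO46 and KO47). What the numbers stand for is not given in the labels. Values are log2 intensities, the median probe lay at 6.60 on every array, and precision is limited by how many arrays there are. Wild type arrays read 10.42 ± 0.085 and Hdac3 CKO arrays 10.25 ± 0.077 (SD, n = 8 each) for Hdac3 itself, which was lower in 5 of 5 runs, but did not pass over all probes (limma adjusted p = 0.932, or 0.162 when the runs were a block). WT13 and WT14 stood apart from the other 14 arrays. Their Y-linked Eif2s3y read 5.89 and 6.17 against 8.28 to 9.89 elsewhere, and their Fcer1g, the signalling chain of Fc receptors, read 6.20 and 6.12 against 11.73 to 13.24. These differences and genotype cannot be told apart within run 2. Of 10 osteoblast markers 7 lay above the median probe on at least 8 arrays, and so did 13 of 13 macrophage markers, 6 of 8 endothelial markers and 3 of 9 chondrocyte markers. In RNA of a mixed culture, fewer cells of a type and less RNA per cell cannot be told apart.

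No collagen gene passed the test between Hdac3 CKO and wild type cultures. The closest were Col4a1 and Col4a2, the chains of the common basement membrane collagen, 1.42-fold and 1.40-fold higher in Hdac3 CKO, while Col1a1, the main chain of bone collagen, stood at 0.973-fold. In limma 0 of 37 collagens had a Benjamini-Hochberg adjusted p under 0.05, against 0 of 25697 probes (0%), and with the runs as a block 0 of 37 against 56 probes (0.218%). At an unadjusted p under 0.05 there were 5 collagens without a block, where 4.74% of all probes had one, and by an exact rank sum test 0 passed after adjustment and 4 before. With the runs as a block there were 8, where 11.2% of all probes had one. The 3 higher in Hdac3 CKO were Col4a1, Col4a2 and Col18a1, where 5.81% of all probes were higher, and the 5 lower were Col7a1, Col11a1, Col9a1, Col17a1 and Col27a1, where 5.37% were lower. Of the 19 collagens above the median probe on at least 8 arrays 7 reached this p, where 18.3% of such probes did.

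Fibrillar chains as a class had a median difference of -0.04, with 4 genes higher and 7 lower, and the other collagens one of 0.01, with 14 higher and 12 lower. The median over all probes was -0.002. The probe's brightness limits what can be seen: 13 collagens had a mean log2 intensity between 7.74 and 13.34, and 24 lay between 5.95 and 6.84, next to the median probe. Among the 13 brighter genes, 10 were higher in Hdac3 CKO, with a median of 0.08, where 4944 of 10341 probes with a mean log2 over 7 were higher, with a median of -0.006. Among the 24 dimmer genes 8 were higher and 16 lower, with a median of -0.02.

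**Figure D1:**
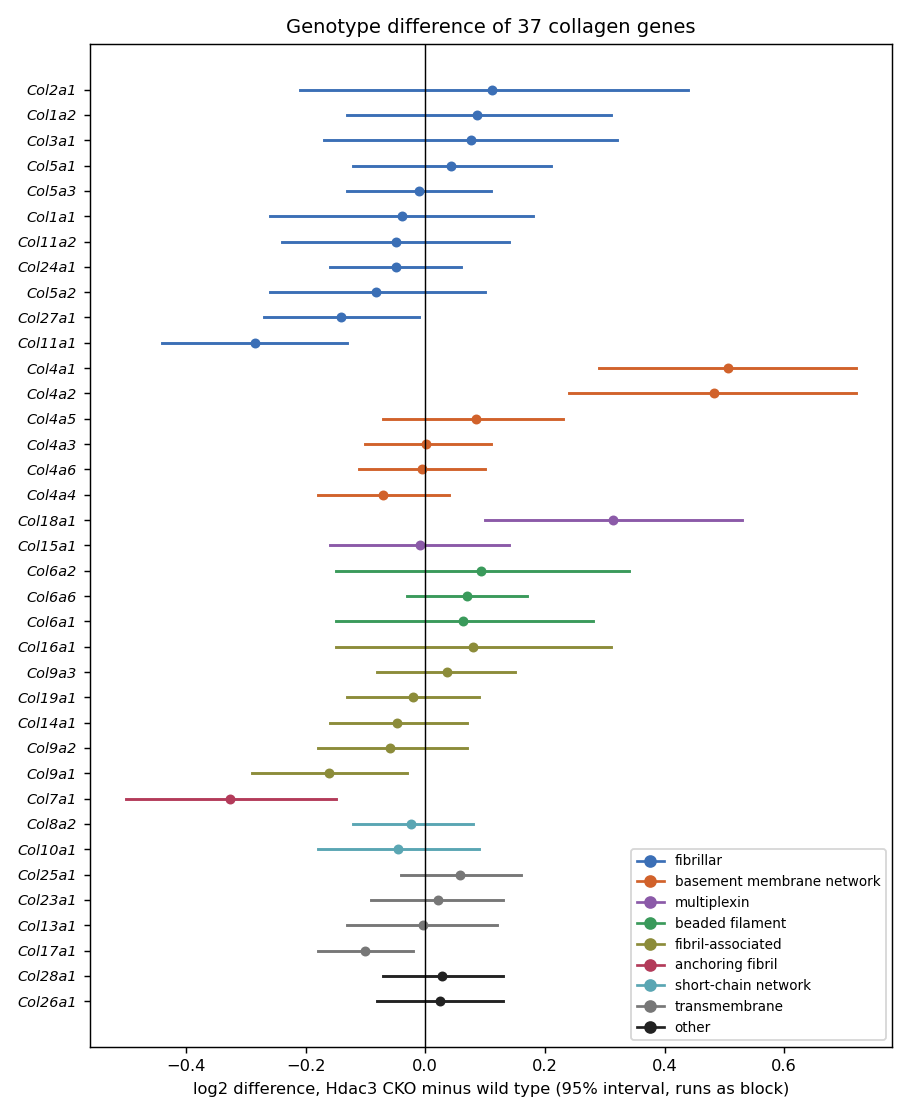
Log2 difference (Hdac3 CKO minus wild type) of each of the 37 collagen genes, coloured by class, with 95% intervals from the limma fit with the runs as a block. Col4a1 and Col4a2 lie farthest to the right, at 0.51 and 0.48, Col7a1 and Col11a1 farthest to the left, and most fibrillar chains sit near 0.

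Col4a1 and Col4a2 encode the chains that together make the type IV collagen of most basement membranes. Both lie on chromosome 8 of GRCm38.p6, Col4a1 at 11198423 to 11312889 and Col4a2 at 11312805 to 11449287, and they are read away from each other from 1 shared region. Their promoter windows (250 bases before to 50 after the start, from RefSeq) are printed because the pair is the one that stood closest to the threshold. The starts in this table, 11312826 for Col4a1 on the minus strand and 11312805 for Col4a2 on the plus strand, are 21 bases apart, and capitals mark the 78 bases (11312777 to 11312854) that both windows hold, read on opposite strands. The Col4a1 window is chr8:11312777-11313076, minus strand, and the Col4a2 window is chr8:11312555-11312854, plus strand.
Col4a1: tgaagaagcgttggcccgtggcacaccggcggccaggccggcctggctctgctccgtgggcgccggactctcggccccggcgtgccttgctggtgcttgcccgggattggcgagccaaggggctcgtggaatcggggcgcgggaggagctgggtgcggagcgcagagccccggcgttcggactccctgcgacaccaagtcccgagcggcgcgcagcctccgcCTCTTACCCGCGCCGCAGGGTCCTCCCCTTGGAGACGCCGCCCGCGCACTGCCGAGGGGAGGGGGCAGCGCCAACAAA
Col4a2: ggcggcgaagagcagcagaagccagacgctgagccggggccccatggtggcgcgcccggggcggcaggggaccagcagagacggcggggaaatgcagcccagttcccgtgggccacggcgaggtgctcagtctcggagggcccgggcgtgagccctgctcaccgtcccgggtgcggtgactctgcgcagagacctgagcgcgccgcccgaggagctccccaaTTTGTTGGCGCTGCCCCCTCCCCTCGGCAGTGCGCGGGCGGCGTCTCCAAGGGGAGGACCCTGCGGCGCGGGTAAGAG
G and C made up 74.0% of the Col4a1 window and 73.7% of the Col4a2 window, against a median of 52.7% over all 32851 windows in the table. The Col4a1 window holds the letters of a GC box (GGGCGG) once and the Col4a2 window 3 times, and each holds those of a CCAAT box once (both strands searched).

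In wild type, Col4a1 had a lowest, median and highest log2 intensity of 11.11, 11.49 and 12.31, and in Hdac3 CKO of 11.47, 12.14 and 12.63, so the groups overlapped. Its means were 11.51 ± 0.38 and 12.02 ± 0.39 (SD, n = 8 each), a difference of 0.51 (95% interval 0.29 to 0.72 with the runs as a block). The limma adjusted p was 0.932 without a block and 0.0557 with it. An exact permutation test (two-sided) had p = 0.0232 over all 12870 ways to assign the genotypes and 0.00463 over the 864 that keep the runs (smallest possible 0.00231). The call depended on single runs and settings: the adjusted p with the block was 0.0197 without WT5 or without KO7 and 0.0453 without WT30 or without KO32. Runs 1 and 4 hold 1 array per genotype, so leaving out either array takes the whole run out of this fit. The adjusted p was 0.0394 when only probes above the median were tested, and 0.595 where the runs entered as a random block.

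Col4a2 read 9.94, 10.46 and 11.26 in wild type and 10.21, 11 and 11.55 in Hdac3 CKO (lowest, median, highest). The groups overlapped here too. The means were 10.47 ± 0.41 and 10.95 ± 0.41, a difference of 0.48 (95% interval 0.24 to 0.72). The limma adjusted p was 0.109 with the block. It was 0.0249 without WT5 or without KO7, either of which takes run 1 out of this fit. The exact permutation p was 0.0351 over all arrangements and 0.0116 within runs. The other type IV chains, Col4a3, Col4a4, Col4a5 and Col4a6, which form the networks of kidney, lung and eye among others, read 6.22 to 6.84 on average, and their differences lay between -0.07 and 0.09.

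The genotype difference of both genes varied between runs. For Col4a1 it was -0.03, 0.62, 0.22, 0.32 and 1.04 in runs 1 to 5, and for Col4a2 -0.23, 0.70, 0.18, 0.30 and 1.03. Run 5 therefore showed 2.05-fold and 2.04-fold higher signals in Hdac3 CKO, with KO46 and KO47 at 12.22 and 12.11 for Col4a1 against 11.15 and 11.11 in WT42 and WT44, while run 1 showed no higher signal. A limma F test of the genotype by run interaction passed for 3 of 37 collagens, against 0.494% of all probes: Col4a2 (adjusted p = 0.0131), Col2a1 (0.0176) and Col4a1 (0.0367). All 3 are among the 19 brighter collagens, where 0.873% of such probes passed, and 9 of 37 had an unadjusted p under 0.05, where 7.62% of all probes did. Without run 2, which holds WT13 and WT14, 0 of 37 passed, with 5 at an unadjusted p under 0.05. That fit has fewer arrays, and the share of all probes passing in it was not computed. The differences of run 2 lay inside the range of the other runs for all 3 genes. The low end of that range came from run 1, which holds 1 array per genotype. The part of WT13 and WT14 in the interaction was not tested. Without run 5 the adjusted p was 0.257 for Col4a1 and 0.0471 for Col4a2.

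Endothelial cells make type IV collagen. Of 8 markers of these cells, 0 passed between genotypes with the runs as a block, where 0.218% of all probes did. Of these markers 1 had an unadjusted p under 0.05, where 11.2% of all probes had one. The mean of the 8 markers differed between genotypes by -0.01, 0.22, -0.17, 0.14 and 0.39 in runs 1 to 5. Its level over arrays spanned 6.97 to 8.01 in wild type and 7.10 to 8.15 in Hdac3 CKO. The markers were not uniform. Emcn, a surface sialomucin of capillaries, differed by 0.68 in run 2 and 1.14 in run 5, and the junction protein gene Esam by 0.55 and 1.01. The interaction passed for these 2 of 8 and no other marker of the list (limma adjusted p = 0.0232 and 0.00158), where 0.494% of all probes passed. The defining endothelial genes Cdh5 and Kdr averaged 6.45 and 6.78, near the median probe. Cdh5 differed between runs and reached 6.95 in run 4 (limma F test adjusted p = 0.00381). Between genotypes Cdh5 differed by 0.11 and 0.08 in runs 2 and 5, and Kdr by -0.10 and -0.01. In runs 2 and 5 Vwf, the clotting factor carrier, differed by -0.02 and 0.18, and the receptor gene Tie1 by 0.17 and -0.08. Pecam1 differed by 0.28 and 0.73 in these runs, and Tek by 0.06 and 0.06. With the endothelial marker mean as a covariate beside the runs, a setting chosen after seeing the data, the difference of Col4a1 was 0.32 (adjusted p = 0.336) and that of Col4a2 0.27 (0.58). The 13 macrophage markers differed by 1.11 in run 2 and 0.22 in run 5, or by 0.72 and 0.23 without Fcer1g, and with them as a covariate Col4a1 differed by 0.41 (adjusted p = 0.514). Of 9 adipocyte markers 1 passed between genotypes with the block, Adipoq (1.19, limma adjusted p = 0.00105), where 0.218% of all probes did. The mean of these 9 differed by 0.09, 0.96, 0.21, 0.32 and 0.38 in runs 1 to 5. With the block, 7 adipocyte markers had an unadjusted p under 0.05, all higher in Hdac3 CKO. So did 6 higher and 1 lower macrophage markers, 3 osteoblast markers, all lower, and 1 higher and 1 lower chondrocyte marker. Of all probes 5.81% were higher and 5.37% lower at this p. The mean of the 10 osteoblast markers differed by -0.34, -0.44, -0.04, -0.06 and 0 in runs 1 to 5. Of 8 smooth muscle and pericyte markers 1 passed the interaction, Mcam (limma adjusted p = 0.0232), where 0.494% of all probes did. Mcam differed by 0.67 in run 2 and 0.62 in run 5. The interaction also passed for 3 of 9 adipocyte, 1 of 13 macrophage, 1 of 10 osteoblast and 0 of 9 chondrocyte markers. The part of all these cell types in the Col4a1 and Col4a2 values was not tested further.

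**Figure D2:**
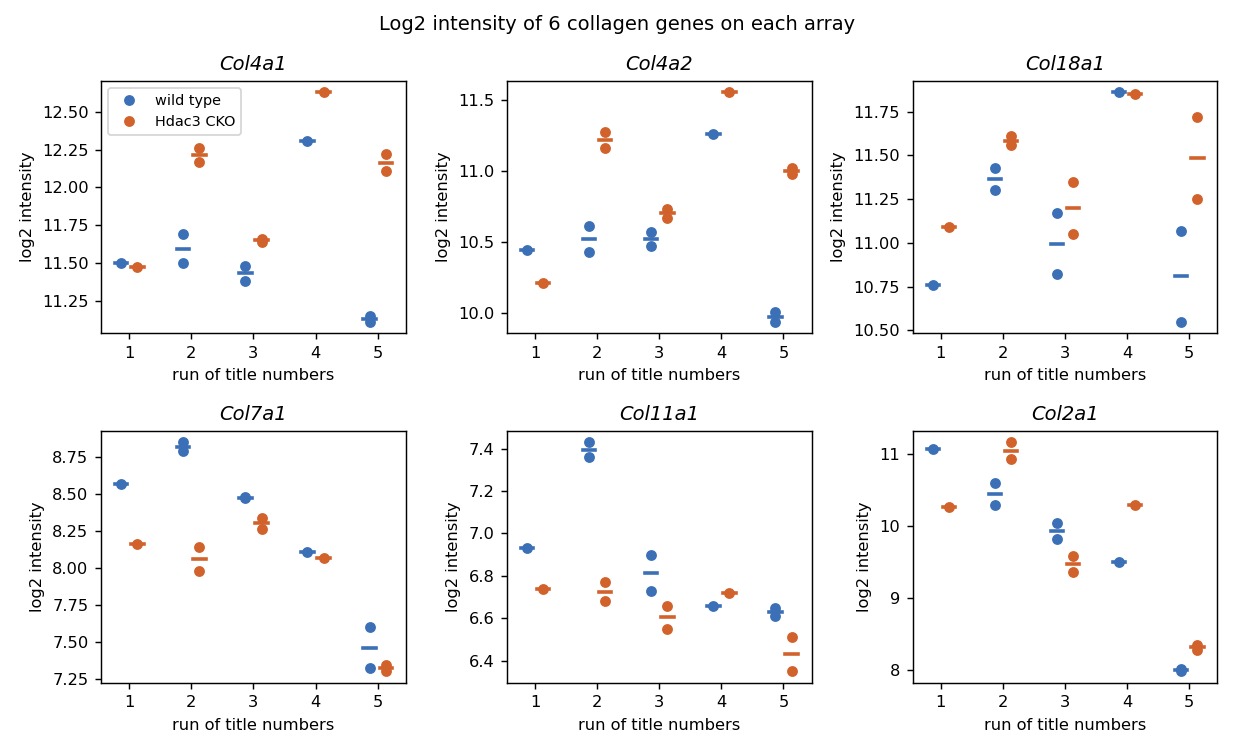
Log2 intensity of 6 collagen genes on each of the 16 arrays, by run of title numbers; points are arrays, short lines the mean of a genotype in a run, blue wild type and orange Hdac3 CKO. Col4a1 and Col4a2 show the widest genotype gap in run 5, Col7a1 is lower in Hdac3 CKO in every run, and Col2a1 falls from 10.67 in run 1 to 8.15 in run 5 with the order of the genotypes changing.

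Col18a1 and Col15a1 are the multiplexins, basement membrane collagens that carry sugar chains; the end of the Col18a1 protein is the source of endostatin. Col18a1 read 10.55 to 11.86 in wild type and 11.05 to 11.85 in Hdac3 CKO, with medians of 11.12 and 11.46, so the groups overlapped. Its difference was 0.31 (95% interval 0.10 to 0.53), or 1.24-fold, with a limma adjusted p of 0.232 with the block. It was higher in 4 of 5 runs, by up to 0.67 in run 5, and -0.01 in run 4 (exact permutation p = 0.106 over all arrangements, 0.0116 within runs). Its other probes, at 6.99 and 6.16 on average, differed by -0.01 and 0.02. Col15a1 stood near the median probe, at 6.58 ± 0.20 (wild type) and 6.57 ± 0.14 (Hdac3 CKO, SD, n = 8 in both), with a difference of -0.01 whose sign changed with the setting.

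The fibrillar collagens of bone and connective tissue were bright on all arrays. Their signal depended far more on the run than on the genotype. Col1a1 read 11.45, 12.11 and 13.39 in wild type and 11.81, 12.25 and 12.80 in Hdac3 CKO (lowest, median, highest), with the wild type range enclosing that of Hdac3 CKO. The means were 12.30 ± 0.66 and 12.26 ± 0.42, a difference of -0.04 (95% interval -0.26 to 0.18, limma adjusted p = 0.938 with the block), and the sign turned without run 2 (0.10). Between runs, Col1a1 ranged 2.43-fold, from 12.99 in run 2 to 11.71 in run 5 (limma F test adjusted p = 0.00012). Run accounted for 85.7% of its sum of squares, genotype for 0.146%.

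Col1a2, the second chain of type I collagen on chromosome 6, read 12.04, 12.51 and 13.47 in wild type and 12.06, 12.73 and 13.28 in Hdac3 CKO. The groups overlapped almost whole, the difference was 0.09 (95% interval -0.13 to 0.31), and the runs spanned 1.93-fold (adjusted p = 0.00159). Its promoter window, chr6:4505368-4505667, plus strand, is printed as the example of a fibrillar chain, beside the type IV pair; capitals mark CCAAT box letters on either strand and GC box letters.
Col1a2: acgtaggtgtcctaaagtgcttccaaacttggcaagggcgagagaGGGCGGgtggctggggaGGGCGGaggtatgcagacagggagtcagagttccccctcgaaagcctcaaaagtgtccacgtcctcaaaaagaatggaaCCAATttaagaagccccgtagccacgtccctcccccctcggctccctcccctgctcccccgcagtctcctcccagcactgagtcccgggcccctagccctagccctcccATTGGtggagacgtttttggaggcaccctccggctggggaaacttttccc
The window holds 2 CCAAT matches and 2 GC box matches, and G and C make up 61.0% of it. Of the 33 windows of 30 collagen genes in the table, 36.4% hold CCAAT and 60.6% hold GGGCGG, against 37.4% and 35.7% of all windows, and 15.2% hold a TATA box (TATAAA) against 13.6%. These matches are letters in a window and carry no statement about binding.

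Col3a1, the chain of type III collagen in loose tissue, differed by 0.08 between genotypes and, with an adjusted p of 0.0899, did not pass between runs. Its dimmer probe gave -0.15 between genotypes and did pass between runs (limma F test adjusted p = 9.05e-05). Col5a1 and Col5a2, the chains of the type V collagen that starts and limits fibrils, differed by 0.04 (95% interval -0.12 to 0.21) and -0.08 (-0.26 to 0.10) and passed between runs (adjusted p = 0.00307 and 0.00639). In run 2 the genotype differences of these 5 genes were all below 0: -0.46 for Col1a1, -0.28 for Col1a2, -0.46 for Col3a1, -0.20 for Col5a1 and -0.23 for Col5a2. For Col1a1 WT13 and WT14 read 13.06 and 13.39, and KO15 and KO16 read 12.80 and 12.73. In run 4 the same differences were 0.54, 0.25, 0.53, 0.20 and 0.05. Of the 6 fibrillar genes with a mean log2 over 7, 5 were lower in run 2, where 5558 of 10341 such probes were. The other, Col2a1, was higher by 0.60. Without run 2 the Col1a1 difference was 0.10. Without WT13 and WT14 alone it was 0.27 in the fit with no block, which then holds run 2 through KO15 and KO16 only, so run and genotype are mixed in this value.

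All 6 fibrillar genes with a mean log2 over 7 were highest in run 2, as were 4 of 7 other collagens of that brightness. Of all probes of that brightness 1719 of 10341 were. Of all 11 fibrillar genes 9 were highest in run 2, against 4437 of 25697 probes. Osteoblast markers were highest in run 2 as well, with a mean of 9.30 against 7.73 to 8.35 in the other runs. So were adipocyte markers (8.88 against 7.84 to 8.01) and chondrocyte markers (6.74 against 6.51 to 6.63). Macrophage markers averaged 10.45 in run 2 against 10.67 to 11.41, but this low rested on Fcer1g (9.06 against 12.11 to 13.13). Without Fcer1g run 2 was not the lowest. Endothelial markers were highest in run 4 (8.08 against 7.08 to 7.56), as were Col4a1, Col4a2 and Col18a1. Macrophage markers (11.41) and smooth muscle and pericyte markers (8.49 against 8.13 to 8.34) were highest in run 4 too. That run holds 1 array per genotype. The part of these markers in the run differences of collagens was not tested. Over all collagens, 15 of 37 differed between runs at an adjusted p under 0.05 in limma, against 20.1% of all probes. Of the collagens above the median probe on at least 8 arrays 14 of 19 passed, where 37.5% of such probes did. The 15 were 7 fibrillar genes (Col1a1, Col1a2, Col2a1, Col5a1, Col5a2, Col11a1 and Col24a1) and 8 others (Col4a1, Col4a2, Col4a5, Col6a1, Col6a2, Col7a1, Col16a1 and Col18a1). Without WT30 the count was 12, with Col4a1, Col4a2 and Col18a1 among those that no longer passed, and without run 2 it was 10.

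**Figure D3:**
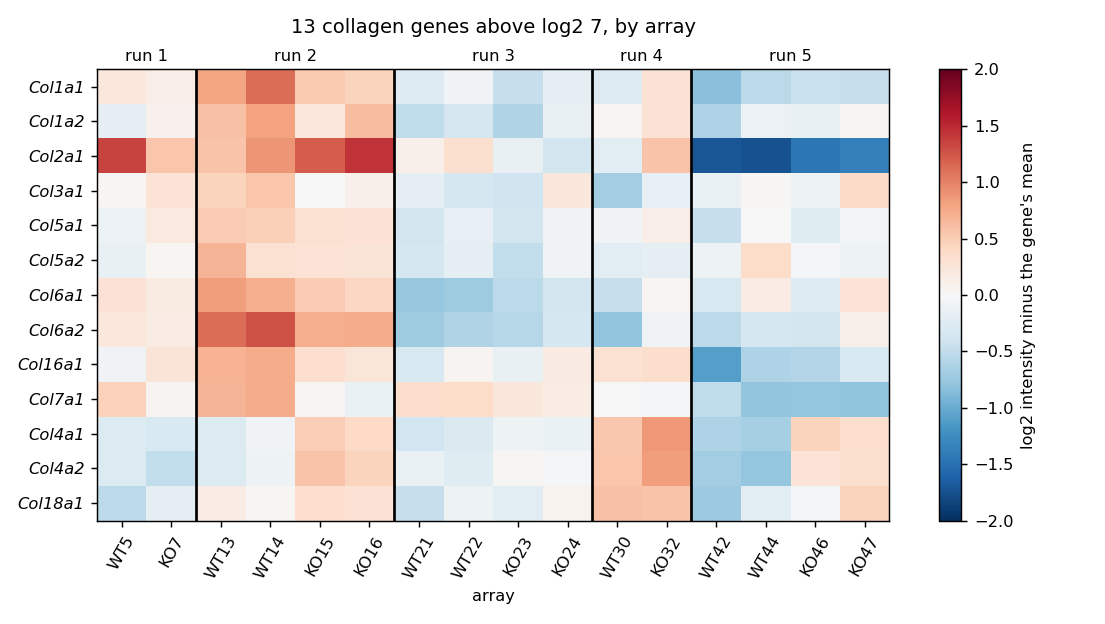
Log2 intensity minus the gene's own mean over 16 arrays for the 13 collagens with a mean log2 over 7, with arrays ordered by run and black lines between runs. Red in run 2 spans the fibrillar and type VI genes, while Col4a1, Col4a2 and Col18a1 are highest in run 4.

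Col2a1, the chain of cartilage type II collagen, varied most between runs. It read 7.98, 9.94 and 11.08 in wild type and 8.28, 9.92 and 11.17 in Hdac3 CKO, nearly the same range. Run means were 10.67, 10.75, 9.70, 9.90 and 8.15, a 6.05-fold range (limma F test adjusted p = 3.11e-06), and its second probe also passed (1.79e-06). The genotype difference changed sign from run to run, at -0.81, 0.60, -0.46, 0.78 and 0.33. The interaction adjusted p was 0.0176, and 0.0265 for the second probe, but 0.198 without run 2 and 0.272 after 50 intensity units were subtracted. Of the 9 chondrocyte markers, Acan, the main cartilage proteoglycan, averaged 6.38 and the cartilage regulator Sox9 7.28.

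Col11a1, which joins Col2a1 in cartilage and Col5a1 elsewhere, read 6.61, 6.82 and 7.43 in wild type and 6.35, 6.67 and 6.77 in Hdac3 CKO. The 2 highest arrays were WT13 and WT14, at 7.43 and 7.36. WT5 and WT21, at 6.93 and 6.90, also lay above the highest Hdac3 CKO array, and the other wild type arrays overlapped with Hdac3 CKO. The difference was -0.28 (95% interval -0.44 to -0.13, limma adjusted p = 0.136 with the block), and -0.16 without run 2. Its exact permutation p was 0.0295 over all arrangements and 0.00463 within runs. The other probes of the gene differed by -0.05 and 0.01, and with 50 intensity units subtracted the difference was -0.51. Of the remaining fibrillar chains, Col5a3, Col11a2, Col24a1 and Col27a1 were near the median probe. Col27a1 differed by -0.14 (unadjusted p = 0.0331, adjusted p = 0.39), and the other 3 by -0.05 to -0.01.

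Type VI collagen, the beaded filament around cells, was also highest in run 2. Col6a1 read 11.86, 12.54 and 13.46 in wild type and 12.08, 12.73 and 13.13 in Hdac3 CKO, and Col6a2 read 8.95, 9.30 and 11.01 and then 9.17, 9.77 and 10.48. In both genes the wild type range enclosed that of Hdac3 CKO. The differences were 0.06 (95% interval -0.15 to 0.28) and 0.09 (-0.15 to 0.34), and the run ranges 2.33-fold and 2.88-fold (limma adjusted p = 0.000187 and 3.36e-05 between runs). Within run 2 both were lower in Hdac3 CKO, by -0.32 and -0.46, and in run 4 higher, by 0.49 and 0.73. Col6a6 was near the median probe, with a difference of 0.07 (exact permutation p = 0.123). Col6a3, Col8a1 and Col12a1 were not analysed here.

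Col7a1 makes the anchoring fibrils that tie basement membranes to the tissue below. It was lower in Hdac3 CKO in 5 of 5 runs, by -0.42, -0.76, -0.17, -0.04 and -0.14. The wild type arrays read 7.32, 8.47 and 8.85 and the Hdac3 CKO arrays 7.30, 8.11 and 8.34 (lowest, median, highest), so the groups overlapped. The difference of -0.33 (95% interval -0.50 to -0.15) did not pass (limma adjusted p = 0.121 with the block), with an exact permutation p of 0.198 over all arrangements and 0.00463 within runs. Without run 2 the difference was -0.18, and with the macrophage markers as a covariate also -0.18. Its second probe, near the median, differed by -0.005. Between runs Col7a1 ranged 2.07-fold and was lowest in run 5, at 7.39 (limma adjusted p = 3.23e-05).

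**Figure D4:**
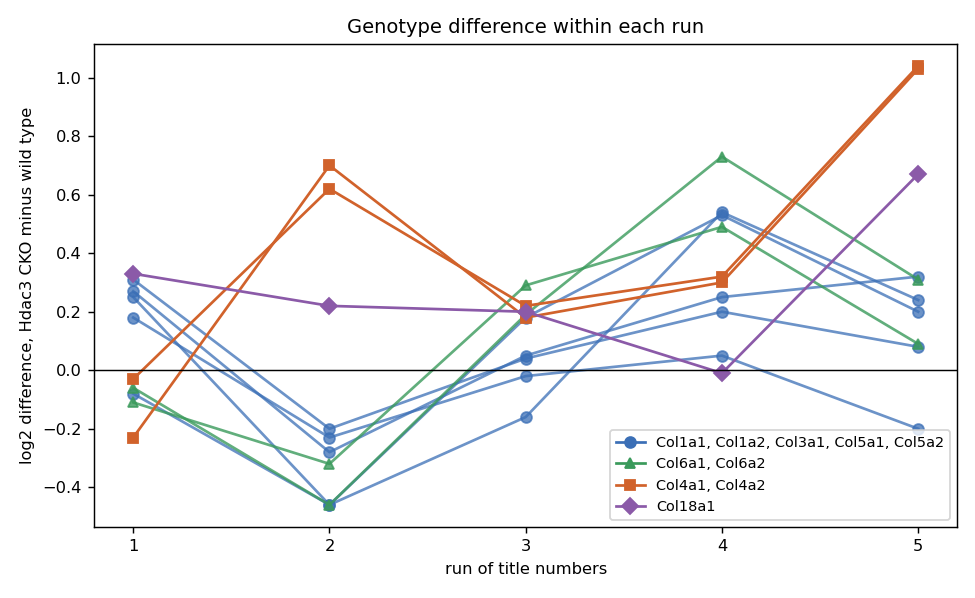
Log2 difference (Hdac3 CKO minus wild type) within each run for 10 collagen genes, lines joining a gene's values. The 5 fibrillar genes drawn (Col1a1, Col1a2, Col3a1, Col5a1 and Col5a2) and Col6a1 and Col6a2 lie below 0 in run 2. They lie above 0 or near it in run 4, while Col4a1 and Col4a2 peak in runs 2 and 5. The fibrillar gene Col2a1, not drawn, stood at 0.60 in run 2.

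Of the collagens that attach to fibrils, only Col16a1 was bright. It read 10.17 to 12.02 in wild type and 10.68 to 11.63 in Hdac3 CKO, with a difference of 0.08 (95% interval -0.15 to 0.31) and a 2.23-fold range between runs (limma adjusted p = 0.000533), highest in run 2. Col9a1, a chain of the type IX collagen on cartilage fibrils, differed by -0.16 (adjusted p = 0.326) and was lower in 4 of 5 runs, while its dimmer probes differed by -0.004 and -0.03. Col9a2, Col9a3, Col14a1 and Col19a1 differed by -0.06 to 0.04. The membrane-spanning Col17a1 read 6.63 to 6.80 in wild type and 6.53 to 6.68 in Hdac3 CKO, so the groups overlapped between 6.63 and 6.68. It was lower in 5 of 5 runs by -0.05 to -0.16, with a mean difference of -0.10 (adjusted p = 0.307; exact permutation p = 0.00264 over all arrangements and 0.00463 within runs), and its other probes differed by -0.03 and -0.02.

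The remaining collagens were all near the median probe, with differences between -0.05 and 0.06. They include Col10a1, the mark of hypertrophic cartilage, at 6.46 ± 0.25 (wild type) and 6.41 ± 0.061 (Hdac3 CKO, SD, n = 8 in both, adjusted p = 0.859), and Col25a1, Col13a1 and Col23a1, which span the membrane. Col8a2, Col26a1 and Col28a1 complete the 37. At this brightness a change in the RNA is compressed, so these values do not bound it.

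Chains that assemble into 1 molecule were compared over the 16 arrays for 8 pairs whose genes are both measured, with permutation p-values adjusted over the pairs. Col4a1 and Col4a2 had Pearson's r = 0.97 and Spearman's rho = 0.938 (permutation p = 1e-05 for both, the smallest that the permutations can give, adjusted p = 4e-05), and r = 0.954 without KO32 and WT30, the arrays farthest from the Col4a1 median. After the mean of each run was removed r was 0.981 (adjusted p = 0.00304). Col6a1 and Col6a2 had r = 0.936 and rho = 0.95, with 0.869 after run means were removed and 0.946 without WT21 and WT22. Arrays of a run have values in common beyond genotype, so the 16 points are not fully independent.

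Type I and type V collagen pairs were less close and leaned on run 2. Col1a1 and Col1a2 had r = 0.846 and rho = 0.765 (adjusted permutation p = 5.33e-05 and 0.00186), r = 0.722 without WT13 and WT14, r = 0.698 with run means removed (adjusted p = 0.022) and r = 0.578 without run 2 (adjusted p = 0.0996). Col5a1 and Col5a2 had r = 0.797 and rho = 0.75 (0.00042 and 0.00186), 0.675 without WT13 and WT14, 0.721 with run means removed and 0.482 without run 2 (adjusted p = 0.172). Col11a1 and Col2a1 had r = 0.551 and rho = 0.8 (0.039 and 0.00107), r = 0.687 without WT13 and WT14 and r = -0.308 once run means were removed, so the relation did not hold within runs. The dim pairs Col4a5 and Col4a6 (r = 0.157), Col9a1 and Col9a2 (0.326) and Col9a2 and Col9a3 (0.152) did not pass.

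**Figure D5:**
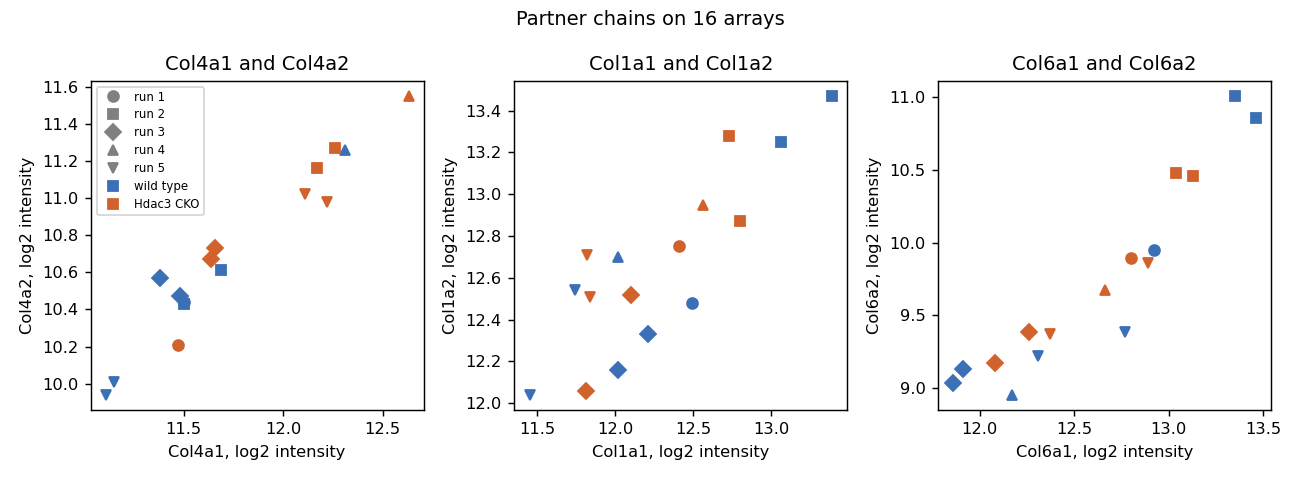
Log2 intensity of partner chains on 16 arrays for Col4a1 and Col4a2, Col1a1 and Col1a2, and Col6a1 and Col6a2, each axis 1 gene, symbols for runs and colours for genotype (blue wild type, orange Hdac3 CKO). The type IV points follow 1 line (r = 0.97), with the Hdac3 CKO arrays of runs 2 and 5 along it above their wild type partners.

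Genes that make, process and degrade collagen were counted beside the chains with the runs as a block, and 0 passed in any of the 5 lists. Of 18 genes of folding and modification, 3 had an unadjusted p under 0.05, all lower in Hdac3 CKO, where 5.37% of all probes did: P3h4, which works with lysyl hydroxylase (-0.21), the lysyl hydroxylase Plod2 (-0.19) and the prolyl hydroxylase subunit P4ha2 (-0.23). Their adjusted p-values in limma were 0.256 to 0.401, and the list median was -0.04. The collagen chaperone Serpinh1 differed by -0.12 (adjusted p = 0.72). Of 10 genes of export and transcription, 2 had an unadjusted p under 0.05, where 11.2% of all probes did, and the smallest p were those of the sorting receptor Kdelr2 (-0.28, adjusted p = 0.158), the xylosyltransferase Xylt2 (0.18, 0.208) and the coat protein gene Sec23a (-0.21, 0.448).

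Of 12 genes that trim propeptides and cross-link fibrils, the lysyl oxidase Loxl2 was lower in 5 of 5 runs, with a difference of -0.25 (95% interval -0.37 to -0.13, limma adjusted p = 0.0907). The propeptide enhancer Pcolce2 (-0.23) and Loxl1 (-0.16) also had an unadjusted p under 0.05, and the list median was -0.05. Of 10 receptors, the mannose receptor Mrc1, which takes up collagen and is also a macrophage marker, differed by 0.53 (adjusted p = 0.158), the discoidin receptor Ddr1 by 0.14 and Lair1 by 0.07. Of 15 genes of breakdown, 4 were lower and 1 higher at an unadjusted p under 0.05, where 5.37% of all probes were lower and 5.81% higher. The collagenase Mmp13 had a difference of -0.48 (95% interval -0.71 to -0.26, adjusted p = 0.0913) and was lower in 5 of 5 runs. The metalloproteinase inhibitor Timp1 differed by -0.23 and the bone collagen protease Ctsk by -0.20, and the list median was -0.06. Between runs, where 20.1% of all probes passed, 12 of 15 breakdown genes, 10 of 18 folding genes, 7 of 12 trimming and cross-linking genes, 3 of 10 receptors and 1 of 10 export genes did.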

How the data were processed

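Total RNA of the 16 cultures had been labelled with biotin and hybridized to the array, per the labels. The deposited values are probe intensities on a linear scale, already quantile normalized across arrays as the values show (median 97.1 to 97.2, highest 37892 on each array). Neither software nor background treatment is given in the sources used here. The lowest intensity, 53.1 to 54.2, lies well above 0, so differences of dim probes are compressed. Intensities were floored at 16 and log2 transformed, with no further normalization. Of 25697 probes, 23978 carried 1 gene symbol in the platform annotation, and 23962 matched the GRCm38.p6 RefSeq gene table. Promoter windows came from RefSeq, with 30 of the 37 collagens matched.

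All probes were fitted by lmFit and eBayes (limma 3.58.1, R 4.3.3) with two-sided tests, Benjamini-Hochberg adjustment over all probes and a threshold of 0.05. Genotype was fitted without a covariate and with the 5 runs of title numbers as a block (a new run after a gap over 4), then runs and the genotype by run interaction (6 residual degrees of freedom) with F tests. Each run holds both genotypes equally, so the estimates of both genotype fits coincide. Single genes had exact permutation tests, and chain pairs permutation tests with 100000 resamples. The code was tested on simulated data. Which arrays come from separate animals is not stated, so the p-values reflect the spread of these arrays alone, which may be technical.

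The collagens, the classes and the gene lists were chosen with earlier results of these data known. Genes described singly are Hdac3, 16 collagens picked by name and up to 5 collagens per direction with the smallest p in either genotype fit. Of the 16 names, Col6a3 and Col12a1 are not among the 37 genes and were not analysed. Also described are the 5 collagens with the largest F between runs and the 3 with the largest interaction F. From each of the 5 lists of genes that make, process, bind and degrade collagen, up to 3 with the smallest p were taken. Marker lists were given by counts and means, with Adipoq named as the marker that passed between genotypes. Serpinh1, Fcer1g, Eif2s3y, Emcn, Esam, Cdh5, Kdr, Vwf, Tie1, Pecam1, Tek, Mcam, Acan and Sox9 were named after their values were seen.

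Alternatives were cyclic loess, scaling by the 75th percentile, 50 intensity units subtracted, a filter on dim probes (above the array median on at least 8 arrays), the mean of a gene's probes, trend and robust variances, marker covariates, a random block, 5 pairs of run means, a rank sum test, and leaving out each array or run.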

Additional observations from a re-analysis of the deposited data

Results flagged for a closer look

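The genotype difference of 3 collagens varied between runs in the limma interaction F test, with adjusted p-values of 0.0131 for Col4a2, 0.0176 for Col2a1 and 0.0367 for Col4a1. Col4a1 and Col4a2 differed most in run 5, by 1.04 and 1.03, and Col2a1 was lower in Hdac3 CKO in runs 1 and 3 and higher in runs 2, 4 and 5. Of 74 groups checked (each collagen in each genotype), 1 held an array far from the others, where chance gives about 1 in 20. Col14a1, a fibril-associated collagen, read 6.42 in KO16 against 6.61 in the next lowest Hdac3 CKO array, a gap that is 0.575 of the group's range.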

How the results depend on the processing

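Without a block no collagen passed under any alternative run, between 1 and 6 having an unadjusted p under 0.05. With the runs as a block, Col4a1 passed with the filter on dim probes (1 gene) and with trend and robust variances (1), Col4a1 and Col4a2 passed without run 1 (2), and Col4a1 without run 4 (1). Leaving out each array gave 0 to 2. Counts above 0 came only from arrays of runs 1 and 4, where this equals leaving out the run. The other settings called 0. The interaction count of 3 went to 0 with 50 units subtracted, to 1 with trend and robust variances and to 0 without run 2 (5 unadjusted). The count between runs stayed at 12 to 16 when each array was left out, and 5 pairs of chains became 3 without run 2. Alternatives chosen after seeing the data were leaving out run 1, 3, 4 or 5, leaving out WT13 and WT14, the endothelial covariate, the macrophage covariate without Fcer1g, and the interaction without run 2 or run 5. By replicate number no paired analysis was possible because the genotypes share none, in the titles or the descriptions. With run means as 5 pairs 0 passed (6 unadjusted).

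Among genotype differences only small ones, none past the threshold, turned sign. The correlation of Col11a1 and Col2a1, which had passed (adjusted permutation p = 0.039), turned sign as well. Without a block, Col1a1 went to 0.26 with the macrophage covariate, 0.102 without run 2 and 0.27 without WT13 and WT14, and Col5a2 to 0.041 with the covariate and 0.069 without these arrays. Col15a1 went to 0.000 with 50 units subtracted, 0.071, 0.040 and 0.046 under the same settings. Col2a1 went to -0.051 without run 2, Col3a1 to -0.036 and Col25a1 to -0.020 with the mean of all probes.

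With the block, Col1a1 went to 0.128 with the macrophage covariate, 0.157 with that covariate without Fcer1g, 0.102 without run 2, 0.001 without run 3 and 0.015 with run means as pairs. Col2a1 went to -0.108, -0.147, -0.111 (endothelial covariate) and -0.051, Col5a2 to 0.020 and 0.059 with the macrophage covariates, Col3a1 to -0.036, Col25a1 to -0.020, Col6a1 to -0.012 without run 3 and Col10a1 to 0.012 without run 4. Col15a1 went to 0.000, 0.050, 0.065, 0.013, 0.040, 0.046 without run 1 and 0.002 without run 4. The correlation of Col11a1 and Col2a1 went to -0.308 with run means removed. The causes were not tested.

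When each array was left out without a block, the differences spanned -0.16 to 0.117 for Col1a1, -0.129 to 0.326 for Col2a1, -0.017 to 0.162 for Col3a1, -0.02 to 0.119 for Col5a1 and -0.138 to 0.01 for Col5a2. They spanned -0.042 to 0.187 for Col6a1, -0.013 to 0.282 for Col6a2, -0.091 to 0.021 for Col10a1 and -0.061 to 0.032 for Col15a1. With the block they spanned -0.122 to 0.03 for Col1a1, -0.003 to 0.083 for Col5a1, -0.074 to 0.012 for Col10a1 and -0.044 to 0.046 for Col15a1. Signal over background limits the 24 dim collagens.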
